A study of Mus musculus with 3 samples.

Results

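The genes described here are 38 parts of the machinery that releases synaptic vesicles, taken as a named list out of the 32285 genes in the 3 count matrices of mouse prefrontal cortex. They hold 8 synaptotagmins (Syt1, Syt2, Syt4, Syt5, Syt7, Syt10, Syt11, Syt17), the SNARE proteins and the factors that act on them (Stx1a, Snap25, Vamp1, Vamp2, Cplx1, Cplx2, Stxbp5, Stxbp5l, Stxbp6, Nsf, Napb), the priming and active zone proteins (Unc13a, Unc13b, Unc13c, Bsn, Pclo, Erc1, Erc2, Ppfia2), the vesicle proteins (Sv2a, Sv2b, Sv2c, Syp, Synpr, Syn1, Syn2, Syn3) and endocytic proteins (Dnm1, Dnm3, Snap91). All 38 were detected in each of the 3 libraries. The question was how the members of each family were divided between excitatory and inhibitory neurons.

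Nuclei of the prefrontal cortex (PFC) of male mice aged 6 to 8 weeks were sequenced as 1 pooled library per group, with no replicate library. The groups were wild-type C57BL/6 (5 mice pooled), Nav1 KO on the C57BL/6 strain (4 mice pooled), which carries a CRISPR deletion in the first exon of Nav1, a gene of axon guidance and neurite growth, and BTBR T<+> Itpr3<tf>/J (number of mice not given), an inbred strain whose name carries the T and Itpr3 alleles. The labels give no treatment for any group. The sort took NeuN+ nuclei, those with the neuronal nuclear protein, and NeuN- nuclei in proportions set by the study, so the shares of neurons and glia are not those of the tissue.

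Neurotransmitter is released when a vesicle that has been docked and primed at the active zone fuses with the membrane upon calcium entry. Syntaxin, SNAP-25 and synaptobrevin (VAMP) form the SNARE complex that drives fusion, complexin and synaptotagmin make fusion depend on calcium, and Munc13 proteins (Unc13 genes) prime the vesicle. Bassoon, Piccolo, ELKS (Erc genes) and liprin-α build the active zone, and dynamins and AP180 retrieve the membrane afterwards. Most of these proteins exist as paralogs, and cortical neurons of different kinds are known to use different ones.

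A nucleus was kept if it showed 200 or more genes and less than 10% of counts from mitochondrial genes, which left 14630, 14056 and 14777 nuclei in the C57BL/6, Nav1 KO and BTBR libraries, and values are given in this order of libraries throughout. The series description states 14630, 14056 and 15238 cells, and 15402, 14623 and 15238 barcodes were in the files. The median nucleus held 2074, 2754 and 2510 UMIs (unique molecular identifiers, each 1 captured RNA molecule), and each pair of libraries shared 55 to 66 barcodes. Marker UMIs placed 5855, 6157 and 6257 nuclei in the excitatory class (markers such as Slc17a7, Tbr1, Neurod2 and Neurod6) and 634, 844 and 1084 in the GABA class (Gad1, Gad2, Slc32a1, Dlx6os1). Another 319 to 638 nuclei per library held UMIs of both lists, passed neither class rule and were set aside. GABA nuclei with striatal markers (375, 283 and 318) and excitatory nuclei with olfactory bulb markers (80, 508 and 525) were kept apart from these classes. A further 6380, 4136 and 4612 nuclei were assigned to no class, with medians of 1473.5, 1796 and 1471.5 UMIs. What leaving them out does to the ratios between libraries was not tested. Markers that the classes did not use also separated them: Camk2a, Arpp21, Nrgn, Neurod1 and Emx1 summed to 2724, 2165 and 2318 CPM (counts per 1000000 counts of the class) in excitatory against 1107, 988 and 1062 in GABA nuclei, and Erbb4, a receptor of cortical interneurons, was at 12.9, 9.05 and 14.4 CPM in excitatory against 234, 129 and 213 in GABA nuclei.

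RNA of neurons was also counted in nuclei that should lack it. Microglia-marker nuclei (67, 104 and 77) held 205, 257 and 322 CPM of Slc17a7, the vesicular glutamate transporter, against 864, 892 and 1002 in excitatory nuclei, and the 38 genes summed to 5849.8, 5188 and 5424 CPM there, 8019, 7468 and 7887 in excitatory and 7969, 7392 and 7951 in GABA nuclei. The microglia level is therefore given beside many of the levels below, as a mark of background and not a measure of it in neurons. Microglia-marker nuclei held a median of 1045, 1145 and 967 UMIs, against 2888, 3672 and 3179 in excitatory nuclei. In astrocyte-marker nuclei the 38 genes summed to 3701, 3391 and 3989 CPM, so the background level depends on the class chosen. Whether background RNA in neurons is as high as in microglia-marker nuclei was not tested. In GABA nuclei 6 of the 38 genes (Syt1, Snap25, Pclo, Sv2a, Syp, Synpr) lay above the microglia level in all 3 libraries with intervals of the ratio that left out 1. In excitatory nuclei 8 did (Syt1, Syt7, Stx1a, Snap25, Unc13a, Unc13b, Erc2, Sv2b). The microglia-marker sums held only 146673, 218217 and 152115 counts. The same count was not made over all genes, so neither number is a result about the list. Intervals on counts, here and below, are exact 95% intervals and cover counting error only.

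The promoters of 4 genes called in the class comparison are shown first, 2 of genes higher in excitatory nuclei (Stx1a, Unc13b) and 2 of genes higher in GABA nuclei (Sv2a, Unc13c). These are not the 4 largest differences. All 4 hold the GC box marked below, which not every promoter of the list does. Each is the 250 bases before the RefSeq start on the gene's strand (GRCm38.p6), 5′ to 3′. Stx1a lies at chr5:135023232-135023481 (+), Unc13b at chr4:43058703-43058952 (+), Sv2a at chr3:96180977-96181226 (+) and Unc13c at chr9:73969038-73969287 (-). Capitals mark the GC box GGGCGG on either strand.
Stx1a: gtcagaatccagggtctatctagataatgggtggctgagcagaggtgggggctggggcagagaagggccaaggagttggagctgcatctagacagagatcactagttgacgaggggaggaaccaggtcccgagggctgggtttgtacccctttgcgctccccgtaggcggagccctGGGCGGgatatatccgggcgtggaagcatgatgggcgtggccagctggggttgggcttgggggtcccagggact
Unc13b: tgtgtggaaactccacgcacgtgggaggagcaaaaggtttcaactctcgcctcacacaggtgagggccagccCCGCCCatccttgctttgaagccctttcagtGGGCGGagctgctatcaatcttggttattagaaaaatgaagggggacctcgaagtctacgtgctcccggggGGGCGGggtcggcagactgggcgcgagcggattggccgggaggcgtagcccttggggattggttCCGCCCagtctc
Sv2a: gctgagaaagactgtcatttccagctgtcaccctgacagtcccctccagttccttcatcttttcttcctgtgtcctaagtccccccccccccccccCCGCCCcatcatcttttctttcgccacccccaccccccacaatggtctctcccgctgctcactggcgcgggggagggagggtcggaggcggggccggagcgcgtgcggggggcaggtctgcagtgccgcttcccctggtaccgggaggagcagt
Unc13c: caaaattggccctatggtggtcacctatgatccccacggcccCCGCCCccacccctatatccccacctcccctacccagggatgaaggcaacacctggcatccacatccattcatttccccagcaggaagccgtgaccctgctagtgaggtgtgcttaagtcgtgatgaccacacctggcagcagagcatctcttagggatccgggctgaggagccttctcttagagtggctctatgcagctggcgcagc

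The table of promoters held 31 of the 38 genes and 38 promoters, since 5 genes had more than 1. The GC box stood in 22 of these 38 and in 32.7% of all 32851 promoters of the same length, with 10 of 13 in genes higher in GABA nuclei, 6 of 14 in genes lower there and 6 of 11 in genes that were not called. The cAMP response element TGACGTCA and TTCAGCACC, the left part of the RE1 element bound by the neuronal repressor REST, each stood in 1 of the 38, that of Syn1 (1.55% and 0.301% of all promoters). A match is a description of the letters, on both strands, and not a bound site.

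Counts were summed over the nuclei of each class in each library, and the GABA and excitatory sums were compared within libraries (edgeR quasi-likelihood test, 6 sums, Benjamini-Hochberg over all genes). Of the 38 genes, 11 were higher in GABA nuclei and 15 were lower, while 12 did not pass the threshold. Over all 16113 genes tested, 16.9% were higher and 18.3% were lower. Here and in the comparisons below, the 38 genes were not matched by counts to all genes, though a call depends on counts. They were also chosen with earlier results of these data known. The largest differences in favor of GABA nuclei were in Synpr, Syt10, Unc13c, Syt2 and Sv2c, and those in favor of excitatory nuclei in Sv2b, Stx1a, Unc13b, Syt7 and Erc2. The median fitted log2 difference was -0.08 over the 38 genes and -0.02 over all genes. The fit draws the error of each gene toward a trend over all genes. An SE or p-value is therefore not the gene's own spread of the class difference over the 3 libraries, which differ in genotype. No group had a replicate library, so neither holds a spread within a group. For Syt10 the SE was 0.22, though its log2 ratios in the 3 libraries ran from 0.51 to 2.95.

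The fit scales each sum by TMM (trimmed mean of M values), which put the fitted values 0.17 below the plain CPM ratios on the log2 scale, so the ratios in single libraries tend to lie above the fitted value. Without this scaling 13 of the 38 genes were higher and 12 lower (4164 and 1789 over all genes, against 2724 and 2951), Dnm1, Ppfia2 and Nsf were no longer called, Snap91 and Vamp2 became called as higher, and no call changed direction. The calls of Snap25, Stxbp6, Syp, Syt11, Syt5 and Unc13a were lost under 1 alternative, the fit without the library term, that of Syt17 also with thinned nuclei, and that of Dnm1 also without TMM scaling. Sums over a class cannot tell more nuclei that use a gene from more RNA per nucleus.

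**Figure D1:**
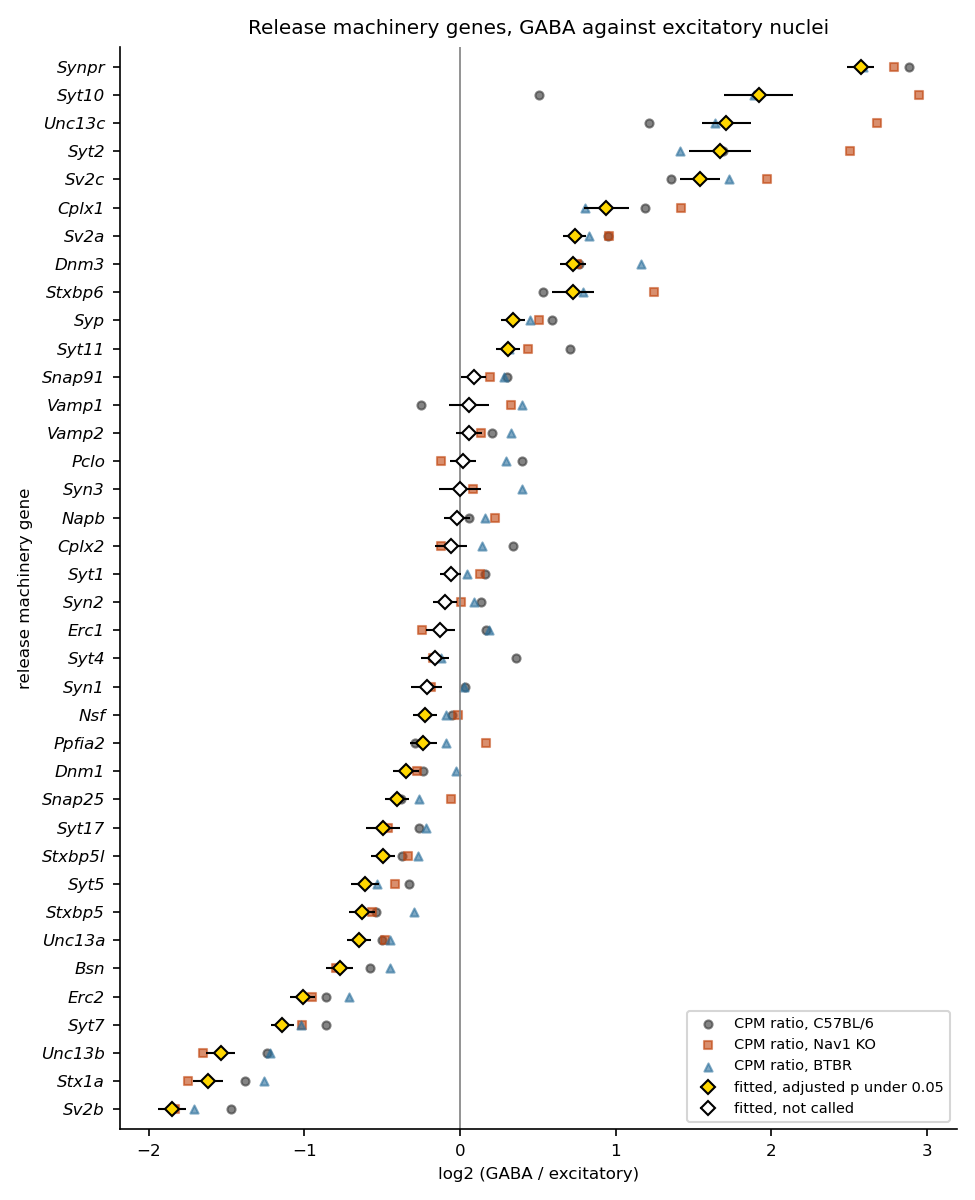
Log2 difference between GABA and excitatory nuclei (x axis) for the 38 release machinery genes (y axis). Diamonds are fitted values with their standard error, gold where the adjusted p is under 0.05, and small symbols are the CPM ratios in each library. Synpr, at 2.58, and Sv2b, at -1.85, mark the ends, and the 3 libraries of Syt10 are spread from 0.51 to 2.95.

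The SV2 proteins, glycoproteins of the vesicle membrane, differed in opposite directions. Sv2b was at 228, 235 and 171 CPM in the excitatory nuclei of the C57BL/6, Nav1 KO and BTBR libraries and at 82.1, 65.7 and 52.2 in GABA nuclei, where microglia-marker nuclei held 143, 115 and 92.0. In the reference annotation (GRCm38) Sv2b lies at chr7:75114894-75309262, Sv2a at chr3:96181151-96195521 and Synpr, described next, at chr14:13284780-13616340. The GABA values of Sv2b all lay below the excitatory ones and at or below the microglia level, and Sv2b was 3.61-fold lower in the fit (log2 fold change -1.85 ± 0.09 (SE), adjusted p = 2.80e-14). Sv2a, the binding protein of the antiepileptic drug levetiracetam, went the other way, from 196, 189 and 220.1 CPM in excitatory to 378, 366 and 391 in GABA nuclei (log2 fold change 0.74 ± 0.07 (SE), adjusted p = 1.56e-08). Its GABA values stood above the microglia level of 177, 215 and 243 in every library. Sv2c, the paralog best known from the basal ganglia, was rarer, at 13.9, 11.4 and 18.9 CPM in excitatory and 35.7, 44.8 and 62.5 in GABA nuclei (log2 fold change 1.54 ± 0.13 (SE), adjusted p = 5.21e-10), with 56, 107 and 183 counts behind the GABA values and 20.5, 0 and 13.1 CPM in microglia-marker nuclei.

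Synaptophysin (Syp) and synaptoporin (Synpr) are related membrane-spanning proteins of the vesicle membrane. Synpr had the largest difference of the list, at 23.2, 36.7 and 35.8 CPM in excitatory and 171, 254 and 216 in GABA nuclei, which was 5.96-fold higher in the fit (log2 fold change 2.58 ± 0.09 (SE), adjusted p = 8.82e-18). The groups did not overlap, and microglia-marker nuclei, at 68.2, 82.5 and 46.0 CPM, lay between them, above the excitatory values. After each nucleus was thinned to 1000 UMIs, 12.9%, 20.8% and 18.5% of GABA nuclei had a Synpr UMI, against 2.49%, 3.34% and 3.29% of excitatory and 8.33%, 6.90% and 2.70% of microglia-marker nuclei; unthinned, the shares were 24.8%, 37.9% and 31.7% of GABA, 6.39%, 12.4% and 10.6% of excitatory and 7.46%, 11.5% and 9.09% of microglia-marker nuclei. Thinning left out 74 to 198 excitatory, 50 to 91 GABA and 31 to 46 microglia-marker nuclei per library that held fewer UMIs. Syp was also higher in GABA nuclei, by much less, at 243, 258 and 285 against 161, 181 and 208 CPM (log2 fold change 0.34 ± 0.08 (SE), adjusted p = 8.81e-04), with 150, 174 and 191 in microglia-marker nuclei.

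Synapsins tether vesicles in the reserve pool, and none of the 3 was called. Syn1 was at 46.0, 49.5 and 52.1 CPM in excitatory and 47.1, 43.6 and 52.9 in GABA nuclei (log2 fold change -0.21 ± 0.10 (SE), adjusted p = 0.106). Syn2 was at 179, 195 and 206 CPM in excitatory and 196, 195 and 219.5 in GABA nuclei (adjusted p = 0.361), and Syn3 at 27.4, 22.2 and 17.7 and, in GABA nuclei, 27.4, 23.5 and 23.2 (adjusted p = 0.994), with overlapping values.

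Among the synaptotagmins, Syt1, the sensor of fast release in forebrain neurons, was at 1575, 1385 and 1542 CPM in excitatory and 1757, 1513 and 1594 in GABA nuclei and was not called (log2 fold change -0.06 ± 0.07 (SE), adjusted p = 0.536). Syt2, the other fast sensor, was low in both classes, at 7.09, 4.05 and 8.20 CPM in excitatory and 22.9, 23.0 and 21.8 in GABA nuclei, with 36, 55 and 64 counts in GABA nuclei. It was 3.18-fold higher in GABA nuclei (log2 fold change 1.67 ± 0.20 (SE), adjusted p = 1.91e-07), and the excitatory values lay at or below the microglia level of 20.5, 9.17 and 13.1 CPM. Syt7, a slow sensor of high calcium affinity used in asynchronous release and facilitation, fell from 510.2, 556 and 662 CPM in excitatory to 281, 274 and 326 in GABA nuclei (log2 fold change -1.14 ± 0.08 (SE), adjusted p = 6.17e-12). The GABA values of Syt7 were close to the 252, 279.5 and 302 CPM of microglia-marker nuclei.

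Syt10, known as a sensor for secretion from olfactory bulb neurons, was at 9.39, 10.3 and 11.9 CPM in excitatory and 13.4, 79.6 and 44.0 in GABA nuclei, with 6.82, 32.1 and 13.1 in microglia-marker nuclei. It was called as higher (log2 fold change 1.92 ± 0.22 (SE), adjusted p = 1.60e-07), but the GABA value of the C57BL/6 library, from 21 counts, exceeded its excitatory value by only 0.51 on the log2 scale. Syt11, a synaptotagmin that is not a sensor of fast release, was higher in GABA nuclei, at 383, 372 and 426 against 234, 274 and 343 CPM (log2 fold change 0.31 ± 0.08 (SE), adjusted p = 0.00349), with 191, 321 and 302 in microglia-marker nuclei. Syt5 (-0.61 ± 0.09, adjusted p = 6.90e-06) and Syt17 (-0.49 ± 0.11, adjusted p = 7.97e-04) were lower, and Syt4 (-0.16 ± 0.09, adjusted p = 0.183), at 128, 141 and 164 CPM in excitatory and 165, 125 and 151 in GABA nuclei, was not called.

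Of the SNARE genes, Stx1a was the one with a large difference. This plasma membrane syntaxin was at 164, 156 and 168 CPM in excitatory and 63.0, 46.5 and 70.3 in GABA nuclei, 3.07-fold lower in the fit (log2 fold change -1.62 ± 0.10 (SE), adjusted p = 1.09e-12). The GABA values were at or below the 81.8, 68.7 and 85.5 CPM of microglia-marker nuclei. At 1000 UMIs a nucleus, 14.9%, 14.6% and 16.0% of excitatory, 4.63%, 4.03% and 6.65% of GABA and 11.1%, 8.62% and 5.41% of microglia-marker nuclei had a Stx1a UMI, and unthinned 39.1%, 44.7% and 43.0% of excitatory, 12.9%, 11.1% and 14.9% of GABA and 14.9%, 12.5% and 13.0% of microglia-marker nuclei did. Snap25 was lower to a small extent, at 884, 818 and 802 CPM in excitatory and 681, 785 and 669 in GABA nuclei (log2 fold change -0.40 ± 0.08 (SE), adjusted p = 1.54e-04), and its GABA values stayed above the microglia level of 505, 527 and 479.9. The synaptobrevins Vamp1 (0.06 ± 0.13, adjusted p = 0.768) and Vamp2 (0.06 ± 0.08, adjusted p = 0.654) were not called. Vamp2 was at 90.4, 105 and 102 CPM in excitatory and 104, 116 and 127 in GABA nuclei.

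Complexins bind the assembled SNARE complex. Cplx1 was at 11.7, 12.2 and 18.8 CPM in excitatory and 26.7, 32.7 and 32.8 in GABA nuclei, with 13.6, 22.9 and 0 in microglia-marker nuclei (log2 fold change 0.94 ± 0.15 (SE), adjusted p = 1.25e-05), whereas Cplx2, at 46.8, 45.6 and 53.2 CPM in excitatory and 59.2, 41.9 and 58.7 in GABA nuclei, was not called (log2 fold change -0.06 ± 0.10 (SE), adjusted p = 0.719). Tomosyns (Stxbp5, Stxbp5l) hold syntaxin and SNAP-25 away from synaptobrevin and were lower in GABA nuclei, Stxbp5 at 119.7, 97.6 and 135 against 174, 145 and 165 CPM (log2 fold change -0.63 ± 0.08 (SE), adjusted p = 1.59e-06) and Stxbp5l with -0.50 ± 0.08, adjusted p = 1.00e-05. Amisyn (Stxbp6), another protein with a SNARE motif that binds syntaxin, was higher, at 35.7, 51.9 and 31.7 against 24.6, 21.8 and 18.3 CPM (log2 fold change 0.73 ± 0.13 (SE), adjusted p = 1.01e-04). For the factors that take used SNARE complexes apart, Nsf was at -0.22 ± 0.08 (adjusted p = 0.0270) and lost its call under 7 of the alternatives, leaving out the C57BL/6 or the BTBR library among them, and Napb was not called (-0.02 ± 0.08, adjusted p = 0.876).

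The Munc13 genes, which prime vesicles, differed in opposite directions. Unc13b was at 210.2, 216 and 192 CPM in excitatory and 89.1, 68.7 and 82.3 in GABA nuclei, 2.91-fold lower (log2 fold change -1.54 ± 0.09 (SE), adjusted p = 1.15e-12), and microglia-marker nuclei held 129.5, 64.2 and 98.6. Unc13c, best known from cerebellum, was at 33.5, 20 and 37.7 CPM in excitatory and 77.7, 128 and 118 in GABA nuclei, 3.27-fold higher (log2 fold change 1.71 ± 0.16 (SE), adjusted p = 2.63e-09). The microglia level of Unc13c, 143, 59.6 and 118 CPM, was above the GABA value in C57BL/6, below it in Nav1 KO and level with it in BTBR, and astrocyte-marker nuclei held 188, 97.0 and 136. Unc13a, the main Munc13 of forebrain synapses, was lower in GABA nuclei of every library, at 206, 132 and 145 against 291, 185 and 199 CPM (log2 fold change -0.65 ± 0.08 (SE), adjusted p = 2.81e-07), with 170.4, 115 and 112 in microglia-marker nuclei.

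In the active zone scaffold, Erc2 was at 409, 317 and 306 CPM in excitatory and 225, 164 and 187 in GABA nuclei (log2 fold change -1.01 ± 0.08 (SE), adjusted p = 1.43e-10), and the groups did not overlap, with 170.4, 142 and 184 in microglia-marker nuclei. Bsn was lower as well, at 112, 88.8 and 109.9 against 167, 154 and 149.9 CPM (log2 fold change -0.77 ± 0.09 (SE), adjusted p = 8.97e-08), with 61.4, 82.5 and 92.0 in microglia-marker nuclei. Its large relative Pclo (0.02 ± 0.08, adjusted p = 0.883) and Erc1 (-0.13 ± 0.09, adjusted p = 0.329), the paralog of Erc2, were not called. Pclo was at 543, 512 and 491 CPM in excitatory and 716, 469.9 and 604 in GABA nuclei, and Erc1 at 88.8, 76.9 and 85.1 and, in GABA nuclei, 100, 64.9 and 97.0. In both genes the GABA value was above the excitatory one in the C57BL/6 and BTBR libraries and below it in the Nav1 KO library. Liprin-α2 (Ppfia2) was called with -0.24 ± 0.09, adjusted p = 0.0397, which 8 of the alternatives did not keep, leaving out the C57BL/6 or the BTBR library among them. It was at 190.3, 150.1 and 179 CPM in excitatory and 156, 168 and 168 in GABA nuclei, higher in GABA nuclei of the Nav1 KO library alone.

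Dynamins cut endocytic vesicles from the membrane. Dnm3 was at 219.5, 213 and 200.4 CPM in excitatory and 374, 359 and 449 in GABA nuclei (log2 fold change 0.73 ± 0.08 (SE), adjusted p = 1.08e-07), and was higher still in oligodendrocyte-marker nuclei, at 569.8, 587 and 686 CPM. Microglia-marker nuclei held 307, 243 and 283 CPM, and the excitatory values were at or below that level in all 3 libraries. The oligodendrocyte markers (Mag, Mog, Mobp, Mbp, Aspa) summed to 56.5, 45.9 and 56.0 CPM in excitatory and 56.7, 55.3 and 58.7 in GABA nuclei, and their part in the Dnm3 result was not tested. Dnm1 was lower to a small extent, at 159, 152 and 179 against 188, 184 and 182 CPM (log2 fold change -0.35 ± 0.08 (SE), adjusted p = 0.00140). AP180 (Snap91), a clathrin assembly protein, was not called (0.09 ± 0.08, adjusted p = 0.442).

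**Figure D2:**
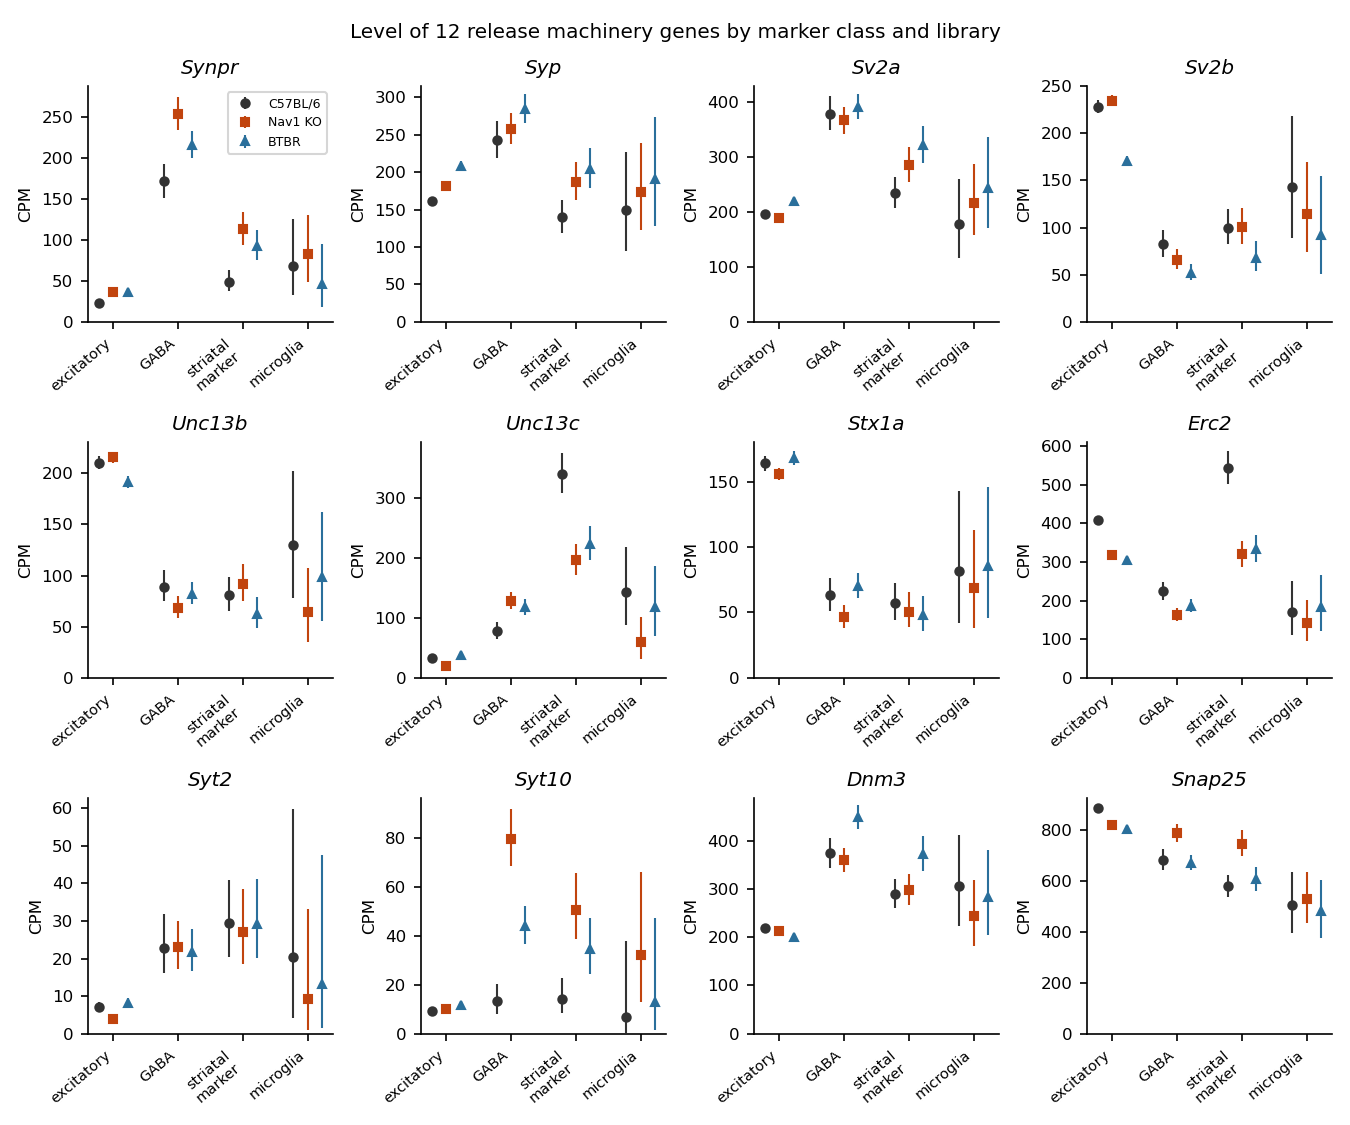
CPM (y axes, from 0) of 12 release machinery genes in 4 marker classes of nuclei (x axes), with 1 point per library and exact 95% counting intervals. Sv2b, Stx1a and Unc13b stand high in excitatory nuclei alone of the 4 classes, Synpr in GABA nuclei and Unc13c in striatal-marker nuclei. Microglia-marker nuclei are the class used to mark background RNA.

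The share of each paralog among the counts of its family was then compared between the classes, which does not depend on the scaling between them. A family here holds genes of the list alone, so that Cplx3 and Dnm2, for example, are not counted. Shares are of counts, so they are compared between classes and not between genes of unequal length. Of 25 paralogs in 11 families, 9 had a higher share in GABA nuclei in all 3 libraries with intervals apart and 8 a lower share, in 8 of the families. Shares in a family sum to a whole, so in the 6 of these families with 2 genes each higher share comes with a lower one, and 12 of the 17 shares are 6 results. With 3 pairs of values, the smallest exact two-sided permutation p is 0.25, so no test is given.

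In the SV2 family, Sv2b took 52.1%, 54.0% and 41.7% of the counts in excitatory and 16.6%, 13.8% and 10.3% in GABA nuclei. Sv2a took 44.7%, 43.4% and 53.7% in excitatory and 76.3%, 76.8% and 77.3% in GABA nuclei. Its share was the highest in BTBR among excitatory nuclei, where that of Sv2b was the lowest. In the Munc13 family, Unc13b went from 39.3%, 51.3% and 44.7% in excitatory to 23.9%, 20.9% and 23.8% in GABA nuclei and Unc13c from 6.27%, 4.75% and 8.81% in excitatory to 20.9%, 38.9% and 34.1% in GABA nuclei. Unc13a had 54.4%, 44.0% and 46.5% in excitatory and 55.2%, 40.2% and 42.1% in GABA nuclei. Synpr made up 12.5%, 16.8% and 14.6% of the Syp and Synpr counts in excitatory and 41.3%, 49.6% and 43.1% in GABA nuclei. The microglia levels of Unc13c and Synpr given above were higher than their excitatory levels in every library. For Unc13c they also reached or passed the GABA level in the C57BL/6 and BTBR libraries. The part of background RNA in these shares and in those of the other families was not tested.

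Shares also differed in 5 other families. Dnm3 took 53.9%, 53.7% and 52.4% of the counts of Dnm1 and Dnm3 in excitatory and 70.1%, 70.2% and 71.5% in GABA nuclei. Erc1 took 17.9%, 19.5% and 21.8% of the counts of Erc1 and Erc2 in excitatory and 30.8%, 28.4% and 34.2% in GABA nuclei. Pclo made up 76.5%, 76.9% and 76.6% of the counts of Bsn and Pclo in excitatory and 86.5%, 84.1% and 84.6% in GABA nuclei. Cplx1 held 20.1%, 21.1% and 26.1% of the counts of Cplx1 and Cplx2 in excitatory and 31.1%, 43.8% and 35.8% in GABA nuclei. The direction was the same in each library. Syt2 took 0.448%, 0.291% and 0.529% of the counts of Syt1 and Syt2 in excitatory and 1.29%, 1.5% and 1.35% in GABA nuclei. The synapsins, the VAMPs and the tomosyns held no share with intervals apart in all 3 libraries.

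**Figure D3:**
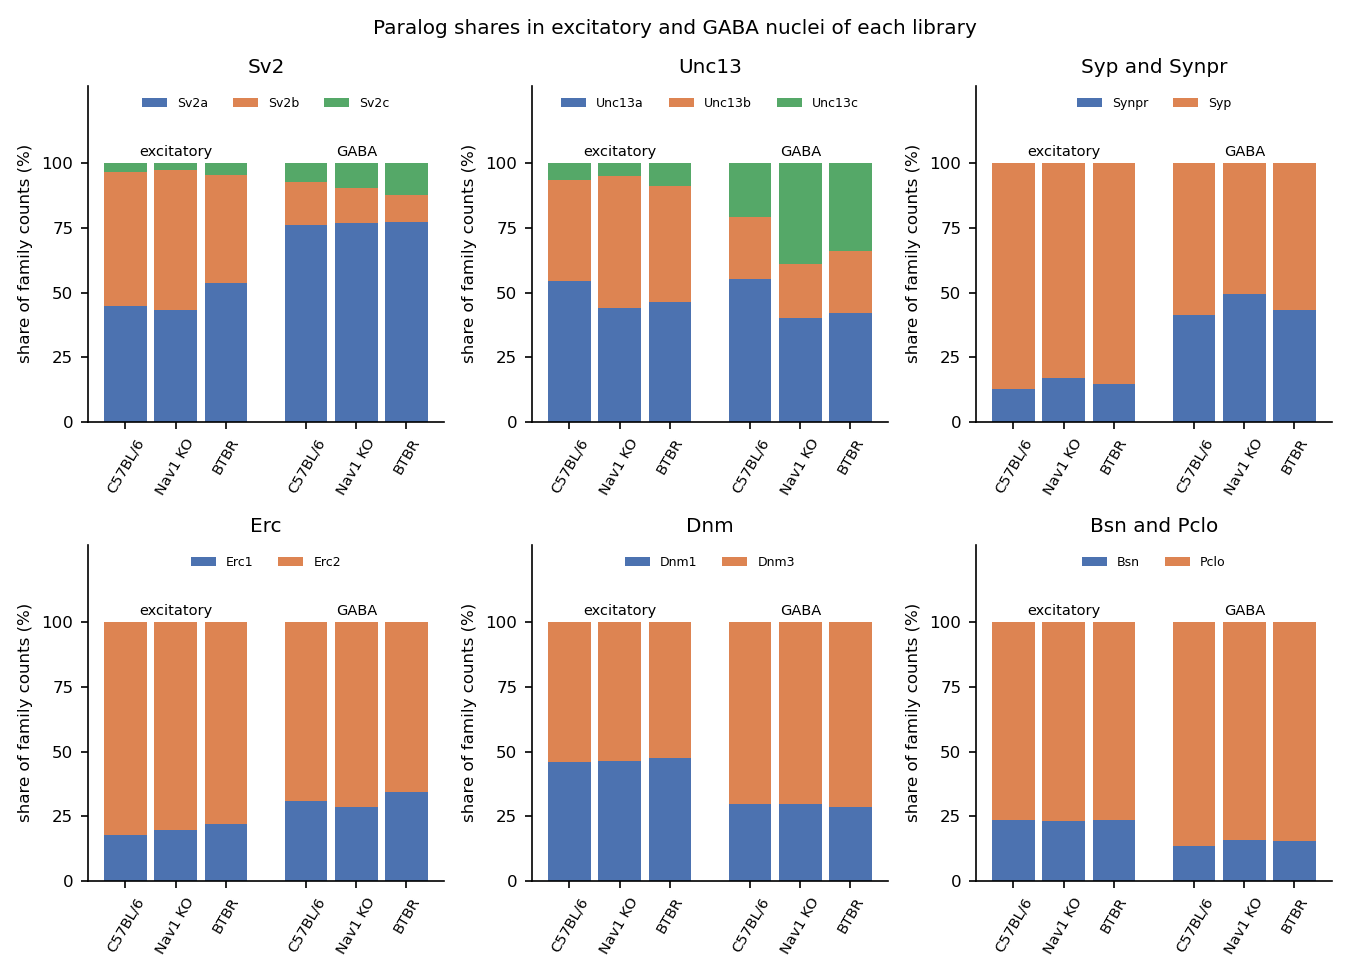
Share of each paralog (%, y axes) in the counts of its family (genes of the list alone), in excitatory and GABA nuclei of each library (x axes), for 6 families. In GABA nuclei Sv2b, Unc13b, Syp, Erc2, Dnm1 and Bsn take a smaller part in all 3 libraries.

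Within the excitatory class, nuclei with layer 6 markers (Tle4, Foxp2, Hs3st4, Col12a1; 995, 970 and 864 nuclei) were compared with those with layer 2/3 markers (Cux2, Rasgrf2, Otof; 860, 1130 and 893). Of the 38 genes 12 were higher in layer 6 marker nuclei and 12 were lower, where 14.0% and 14.4% of the 13439 genes tested were. Without TMM scaling the counts were 15 and 10 (2594 and 1430 over all genes, against 1887 and 1932), with a shift of 0.07 on the log2 scale. Stxbp6 was at 37.0, 33.5 and 31.1 CPM in layer 2/3 and 11.7, 10.7 and 10.7 in layer 6 marker nuclei (log2 fold change -1.70 ± 0.14 (SE), adjusted p = 1.17e-15), and Syt17 at 68.1, 75.3 and 40.7 in layer 2/3 and 23.3, 28.2 and 20.8 in layer 6 marker nuclei (log2 fold change -1.42 ± 0.11 (SE), adjusted p = 4.85e-17). Stxbp6 codes for the syntaxin-binding amisyn and Syt17 for an atypical synaptotagmin. Erc2 was lower in layer 6 marker nuclei, at 309, 219 and 236 against 581, 469 and 411 CPM (log2 fold change -1.01 ± 0.05 (SE), adjusted p = 3.44e-23), as was Ppfia2 (-0.97 ± 0.06, adjusted p = 4.61e-20). Syn3 (-0.74 ± 0.13, adjusted p = 3.87e-06), Synpr (-0.63 ± 0.11, adjusted p = 7.10e-06) and Syn2 (-0.50 ± 0.06, adjusted p = 2.76e-10) followed, and Vamp1, Unc13b, Stx1a, Bsn and Unc13a had log2 fold changes of -0.39 to -0.17.

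Higher in layer 6 marker nuclei were Syt10, at 16.8, 18.9 and 20.3 against 4.45, 5.95 and 9.86 CPM (log2 fold change 1.41 ± 0.18 (SE), adjusted p = 6.07e-09), Unc13c, at 53.1, 34.4 and 54.2 against 22.8, 13.7 and 32.4 (log2 fold change 0.99 ± 0.11 (SE), adjusted p = 1.86e-10), and Dnm3, at 314, 314 and 297 against 193, 169 and 173 (log2 fold change 0.72 ± 0.05 (SE), adjusted p = 1.12e-16). Cplx1 (0.69 ± 0.16, adjusted p = 5.94e-04) and Sv2a (0.48 ± 0.06, adjusted p = 2.82e-10) were higher as well. Sv2b, the gene with the largest difference in favor of the excitatory class, had a small difference between the layers (0.20 ± 0.06, adjusted p = 0.00536), which was lost without the BTBR or the Nav1 KO library and with DESeq2. Syt5, Syt11, Pclo, Syp, Stxbp5l and Syt1 had log2 fold changes of 0.15 to 0.41. DESeq2 called 17 of the 24 genes, without Cplx1, Stx1a, Vamp1, Sv2b, Unc13a, Bsn and Syt1. Unc13a, Bsn and Syt1 also lost the call without the C57BL/6 library, and Vamp1 and Unc13a without the Nav1 KO library. The excitatory sums enter both the layer and the class comparisons, so the comparisons share nuclei.

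GABA nuclei with striatal markers (such as Ppp1r1b, Rgs9, Drd1, Drd2 and Adora2a) were compared with the 473, 575 and 796 GABA nuclei with interneuron markers (Sst, Pvalb, Vip, Lamp5, Adarb2, Npy, Lhx6, Reln). The striatal gate needed 3 or more UMIs of its markers, more than of the interneuron ones. The interneuron gate needed 1 or more, with striatal UMIs not above them. In excitatory nuclei the interneuron markers summed to 250, 243 and 314 CPM and the striatal ones to 789, 600 and 605. In microglia-marker nuclei they summed to 648, 321 and 625 and to 914, 843 and 677. How many nuclei passed either gate on background RNA was not tested. Of the 38 genes 8 were higher in striatal-marker nuclei and 6 were lower, where 7.95% and 7.30% of the 11147 genes tested were (7 and 8 without TMM scaling, with 735 and 1139 over all genes against 886 and 814). Unc13c was at 341, 196 and 224 CPM in striatal-marker and 88.1, 149 and 124 in interneuron-marker nuclei (log2 fold change 1.10 ± 0.16 (SE), adjusted p = 6.09e-06), a call that DESeq2 did not make. Erc2 was at 543, 320.3 and 334 against 216, 168 and 193 CPM (log2 fold change 1.09 ± 0.10 (SE), adjusted p = 1.85e-09). Synpr was lower, at 48.7, 113 and 92.1 against 194, 273 and 229 CPM (log2 fold change -1.40 ± 0.12 (SE), adjusted p = 3.85e-10), as were Syp (-0.56 ± 0.09, adjusted p = 7.48e-05) and Syt1 (-0.34 ± 0.07, adjusted p = 6.40e-04). Syt7 was higher (0.51 ± 0.09, adjusted p = 1.73e-04). Synpr, Erc2, Syt7, Syp and Syt1 were the 5 calls that all alternatives kept. Syt2, Sv2b, Sv2c, Syt5 and Unc13a, higher with log2 fold changes of 0.33 to 0.77, and Sv2a, Dnm3 and Syt11, lower with -0.37 to -0.24, each lost the call under at least 1. Without the C57BL/6 library 9 of the 38 were called.

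Few nuclei carried Pvalb, the marker of fast-spiking interneurons (15, 14 and 25 with a Pvalb UMI and none of Sst or Vip), and they were set against the other interneuron-marker nuclei. Of the 38 genes 2 were higher and 2 lower, where 0.524% and 1.32% of the 9738 genes tested were (the same counts for the 38 without TMM scaling, with 82 and 97 over all genes against 51 and 129). Syt2 was at 142, 207 and 76.8 CPM in Pvalb nuclei, from 7, 10 and 8 counts, and at 13.2, 9.88 and 16.3 in the others (log2 fold change 3.11 ± 0.50 (SE), adjusted p = 2.60e-07). Its share of the counts of Syt1 and Syt2 was 11.3%, 12.3% and 5.48% in Pvalb nuclei against 0.696%, 0.612% and 0.966%. Synpr had 0, 0 and 5 counts in Pvalb nuclei, where 3 counts would be 61.1, 62.2 and 28.8 CPM, and was at 202, 281 and 237 CPM in the others (adjusted p = 7.22e-10). Syt2 and Synpr held under every alternative.

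Vamp1, the synaptobrevin of fast synapses, was at 61.1, 145 and 96.0 CPM in Pvalb nuclei, from 3, 7 and 10 counts, and at 18.2, 32.5 and 38.7 in the others (log2 fold change 1.54 ± 0.45 (SE), adjusted p = 0.0389). It was not called with any 1 of the 3 libraries left out, without the low-count filter or by DESeq2. Unc13c had 2, 1 and 2 counts in Pvalb nuclei, against 90.0, 152 and 128 CPM in the others (log2 fold change -2.42 ± 0.54 (SE), adjusted p = 0.00116), and was not called by DESeq2 or without either the BTBR or the Nav1 KO library. Among the remaining interneurons, Sst nuclei held 142, 349.5 and 265 CPM of Unc13c and Vip nuclei 40.8, 67.7 and 63.9. Synpr was at 271, 379 and 319 CPM in Sst and 422, 522 and 434 in Vip nuclei. Sst and Vip nuclei needed a UMI of that gene and none of the other or of Pvalb. In excitatory nuclei Sst was at 52.9, 35.4 and 53.3 CPM and in microglia-marker nuclei at 130, 22.9 and 138. The part of background RNA in these classes and the difference between Sst and Vip nuclei were not tested.

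**Figure D4:**
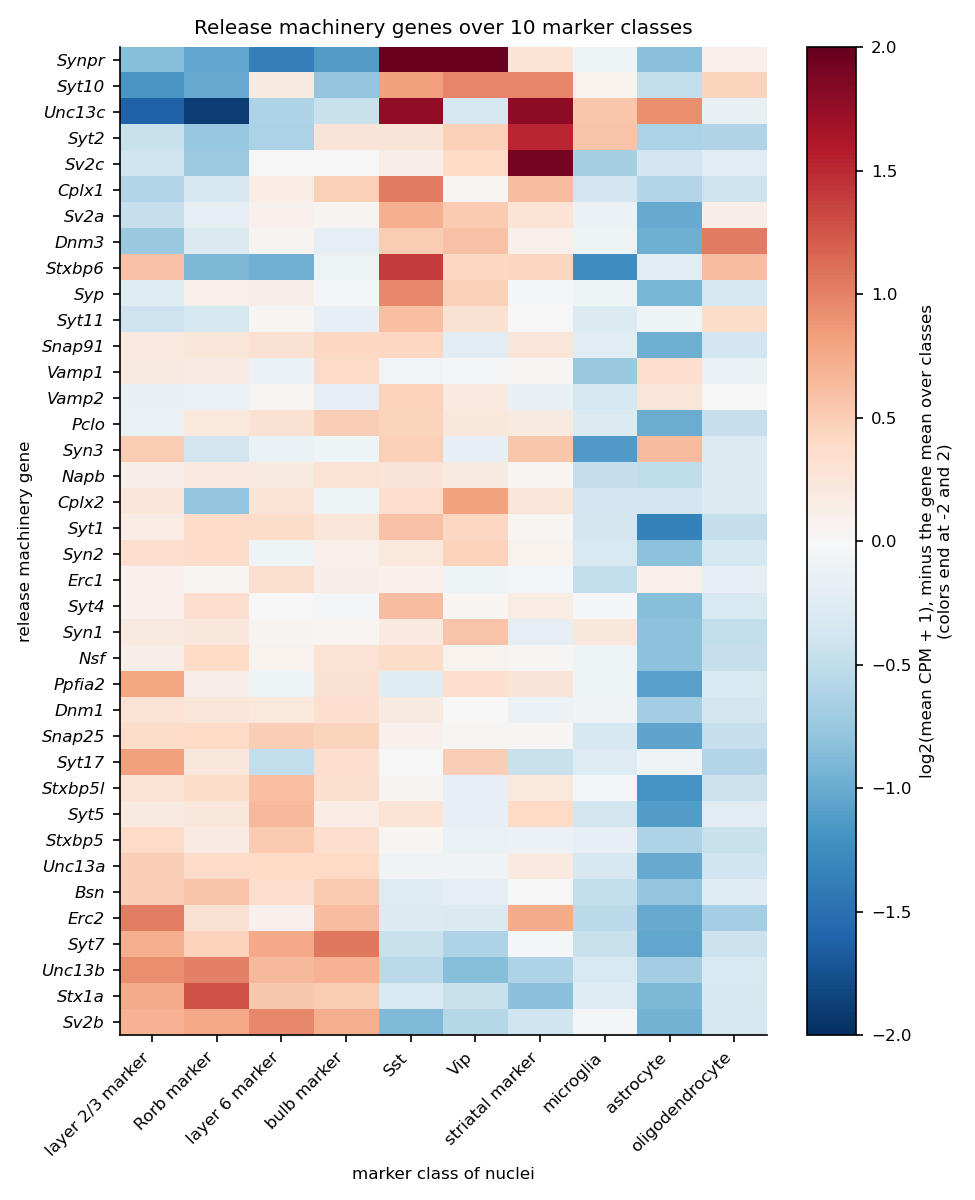
Heat map of log2(mean CPM + 1) over the 3 libraries, minus each gene's mean over the 10 classes, for the 38 genes (rows, ordered by the GABA against excitatory difference) and 10 marker classes (columns). Synpr stands at 2.71 in Vip nuclei, Unc13c at 1.79 in striatal-marker and 1.78 in Sst nuclei, Stx1a at 1.28 in Rorb-marker nuclei and Dnm3 at 1.04 in oligodendrocyte-marker nuclei.

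Another 56 genes of the pathway, among them further synaptotagmins, SNAREs, synaptojanin, endophilins and clathrin adaptors, were counted in the same fits. Between GABA and excitatory nuclei 54 were tested, of which 12 were higher and 17 were lower (16.9% and 18.3% of all genes), and DESeq2 called 19. Sytl5 (2.92 ± 0.51, adjusted p = 5.23e-05), Cplx3 (1.64 ± 0.33, adjusted p = 3.19e-04) and Syt6 (1.5 ± 0.17, adjusted p = 1.07e-07) led the higher genes, and Syt16 (-1.04 ± 0.12, adjusted p = 1.19e-07), Ppfibp1 (-0.95 ± 0.16, adjusted p = 3.09e-05) and Sh3gl2, an endophilin (-0.91 ± 0.09, adjusted p = 1.52e-08), the lower ones. Between the layers 13 of 52 were higher in layer 6 marker nuclei, led by Syt6 (2.62 ± 0.13, adjusted p = 8.26e-25), Cplx3 (2.50 ± 0.42, adjusted p = 2.08e-06) and Cadps2 (0.86 ± 0.09, adjusted p = 2.78e-11), and 7 were lower, led by Lin7a (-0.59 ± 0.12, adjusted p = 1.23e-04), where 14.0% and 14.4% of all genes were, and DESeq2 called 7. Between striatal- and interneuron-marker nuclei 1 of 50 was higher (Syt6, 0.75 ± 0.14, adjusted p = 3.95e-04) and 10 were lower, led by Cadps2 (-1.51 ± 0.20, adjusted p = 1.70e-06), a priming factor of dense-core vesicles, where 7.95% and 7.30% of all genes were, and DESeq2 called 3. Between Pvalb and the other interneuron nuclei 0 of 46 were called by edgeR, 5 were under 0.05 before adjustment, and DESeq2 called 0.

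The libraries differ in genotype or strain with 1 library each, so differences between them have no replicate check and no p-value. In the C57BL/6, Nav1 KO and BTBR libraries Nav1 itself was at 349.7, 239 and 141 CPM in excitatory nuclei. In GABA nuclei it was at 405, 265 and 173 CPM. The assay is a 3′ one, the deletion lies in the first exon and the positions of the tags were not examined. These values therefore do not check the deletion. The paper reports no full-length Nav1 mRNA in Nav1 KO brain by in situ hybridization and no Nav1 protein by mass spectrometry. For genes with at least 100 counts over both libraries, those past 1.5-fold were counted. In Nav1 KO excitatory nuclei 1 of 38 genes was higher and 3 were lower than in C57BL/6, where 3.73% and 5.32% of all genes were. In Nav1 KO GABA nuclei 3 of 36 were higher and 3 lower (4.29% and 10.2% of all genes), and with TMM-scaled values 5 and 0. That scaling turned 281 higher and 667 lower genes into 492 and 334 in Nav1 KO GABA nuclei and 495 and 707 into 797 and 438 in excitatory nuclei (2 and 2 of the 38), where the median ratio of all genes was 0.909 and 0.937. In BTBR excitatory nuclei 2 of 38 were higher and 1 lower (7.76% and 7.08%), and in BTBR GABA nuclei 4 were higher and 1 lower (6.94% and 4.91%). The median ratio of the 38 genes lay between 0.957 and 1.01 in all 4 comparisons.

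Syt10 had the largest ratio, in GABA nuclei, at 5.95 (95% interval 3.78 to 9.84) for Nav1 KO and 3.29 (95% interval 2.07 to 5.50) for BTBR over C57BL/6. The 6 markers of olfactory bulb interneurons (Meis2, Sp8, Tshz1, Pax6, Th, Etv1), chosen after the values were seen, summed to 514, 1729 and 1056 CPM in the same nuclei, with 379, 1303 and 746 for Meis2, 8.91, 44.0 and 31.1 for Th and 7.64, 18.8 and 18.8 for Sp8, and the bulb-marker excitatory nuclei also numbered 80, 508 and 525. In oligodendrocyte-marker nuclei the 6 markers summed to 559, 846 and 1003 CPM and in microglia-marker nuclei to 634, 898 and 789. Astrocyte-marker nuclei held 913, 1018 and 1063 CPM of them, and Meis2 alone was at 505, 628 and 565 in microglia-marker nuclei. Sst itself was at 2239, 1169.7 and 1195 CPM in GABA nuclei. The part of these markers in the Syt10 result and in the other GABA ratios was not tested. Syt10 was at 8.74, 46.0 and 34.5 CPM in Sst nuclei and 11.2, 29.3 and 27.8 in oligodendrocyte-marker nuclei, in the same order of libraries. Unc13c, at 1.65 (95% interval 1.33 to 2.05) and 1.52 (95% interval 1.23 to 1.88), and Vamp1, at 1.64 (95% interval 1.11 to 2.49) and 1.89 (95% interval 1.30 to 2.82), were also past 1.5-fold in GABA nuclei of both libraries, which share the C57BL/6 library as denominator. In the same nuclei the astrocyte markers summed to 57.3, 108 and 97.6 CPM, the vascular ones to 17.8, 52.3 and 52.9 and those of oligodendrocyte precursors to 8.28, 15.1 and 19.5. Unc13c was at 455, 402 and 380.1 CPM in oligodendrocyte precursor marker and 193, 144 and 204 in vascular-marker nuclei, and the part of these cells in its ratios was not tested. Sv2c was at 1.75 (95% interval 1.29 to 2.41) and Sv2b at 0.636 (95% interval 0.5 to 0.810) in BTBR GABA nuclei.

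Unc13a was lower in the Nav1 KO library in excitatory nuclei, at 0.637 (95% interval 0.613 to 0.661), and in GABA nuclei, at 0.644 (95% interval 0.549 to 0.754). In BTBR it was at 0.685 (95% interval 0.659 to 0.712) in excitatory nuclei, inside the 1.5-fold limit. With TMM-scaled values the Nav1 KO ratios of Unc13a were 0.685 and 0.707, inside the limit in both classes. Microglia-marker nuclei held 170.4, 115 and 112 CPM of Unc13a, also lower in the Nav1 KO and BTBR libraries than in C57BL/6, and the part of background RNA in the result was not tested. In Nav1 KO excitatory nuclei Syt2, at 0.571 (95% interval 0.441 to 0.737), and Unc13c, at 0.596 (95% interval 0.531 to 0.668), were the other lower genes and Synpr, at 1.58 (95% interval 1.42 to 1.77), was the higher one. In Nav1 KO GABA nuclei Pclo, at 0.656 (95% interval 0.603 to 0.713), and Erc1, at 0.649 (95% interval 0.517 to 0.816), were lower, and with TMM-scaled values both were inside the limit, at 0.721 and 0.713. In BTBR excitatory nuclei Cplx1, at 1.60 (95% interval 1.36 to 1.88), and Synpr, at 1.54 (95% interval 1.38 to 1.73), were higher and Syn3, at 0.644 (95% interval 0.566 to 0.732), was lower. The excitatory levels of Synpr, Syt2 and Unc13c lay at or below the microglia level, and the part of background RNA in these ratios was not tested.

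**Figure D5:**
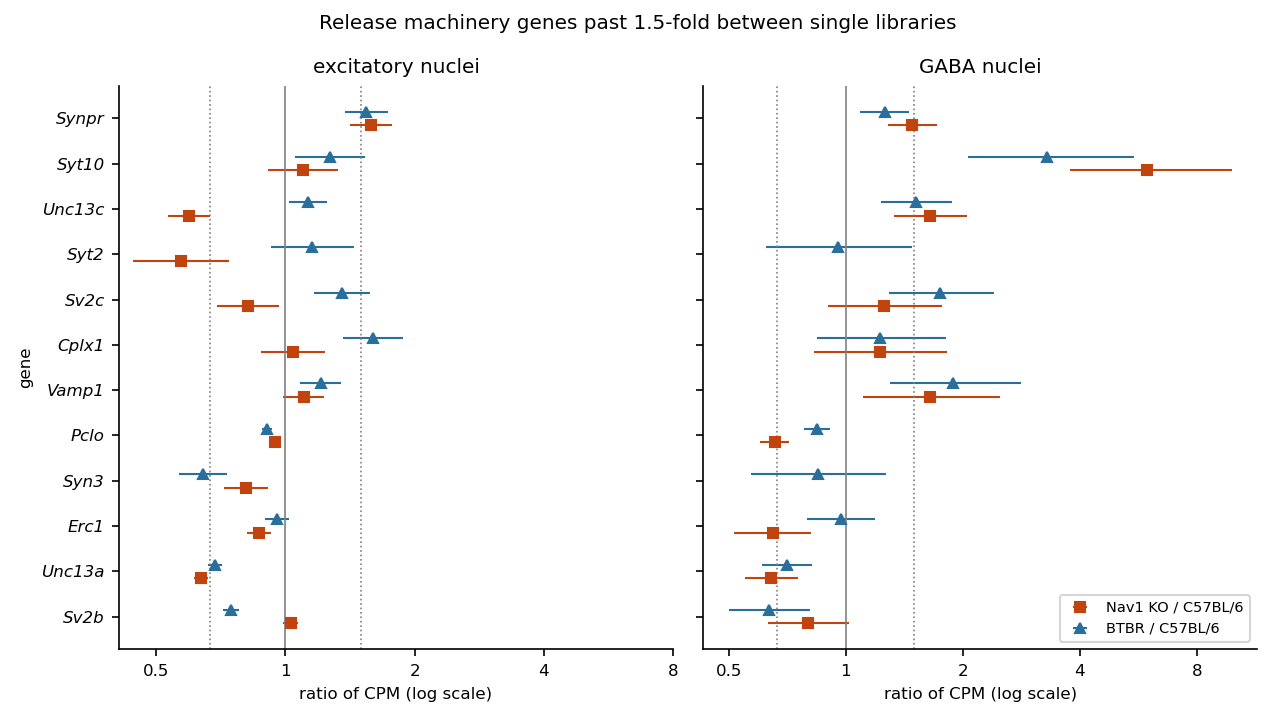
Ratio of CPM to the C57BL/6 library (x axis, log scale) in excitatory and GABA nuclei for the 12 genes past 1.5-fold in at least 1 comparison, with exact 95% counting intervals. The solid line marks a ratio of 1 and dotted lines 1.5-fold, and Syt10 in GABA nuclei, at 5.95 and 3.29, lies farthest out.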

How the data were processed

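Per the labels, nuclei from pooled PFC tissue were sorted on NeuN and sequenced with the 10x Genomics 3′ assay, and the authors deposited for each library a matrix of UMI counts (genes by nuclei, filtered by Cell Ranger 6.0.0, mm10). Whether intronic reads were counted is not stated. The 38 members and all gene lists were chosen with earlier results of these data known. Every member is named, and of the 56 other pathway genes at most 3 in each direction with the largest change. Nuclei showing 200 or more genes and less than 10% mitochondrial UMIs were kept (38701384, 50962468 and 48936236 counts), and genes in at least 3 nuclei. A neuron class needed at least 2 UMIs of its list and at least 2 times those of the other list, and glia 3. The full marker lists of some classes are not reported here. Doublets were treated only by setting aside nuclei with at least 2 UMIs of each neuron list that passed neither class rule, and no caller was run. A nucleus with both lists could stay in a class if 1 list had at least 2 times the UMIs of the other. Counts were summed per class and library and tested with edgeR 4.0.16 (glmQLFit, TMM, library as a term, R 4.3.3), adjusted p under 0.05, after edgeR's low-count filter, which all 38 members passed in each of the 4 comparisons. SEs are the log2 fold change over the square root of F. The scripts were tested on simulated data. Library ratios are of CPM, and their intervals come from the exact split of counts (scipy 1.17.1). Alternatives for the class comparison were DESeq2 1.42.0, no low-count filter, no TMM, no library term, leaving out each library, a stricter gate (3 UMIs and 0 of the other list), a gate on Slc17a7, Gad1 and Gad2, striatal- and bulb-marker nuclei kept, nuclei above the 95th percentile of UMIs left out, under 5% mitochondrial counts, thinning to 1000 UMIs and shared barcodes left out. The other comparisons used DESeq2, no filter, no TMM and leaving out each library. Promoters are set from RefSeq starts (GRCm38.p6). The gene coordinates are those of the reference annotation (GRCm38) and can differ from these starts. For Sv2a the promoter ends at 96181226, past the gene start of 96181151.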

Additional observations from a re-analysis of the deposited data

Results flagged for a closer look

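The CPM ratio of GABA to excitatory nuclei lay on opposite sides of 1 in different libraries, with counting intervals that left out 1, for 4 of the 38 genes and for 113 of 16087 genes in all (0.702%). Divided by the median ratio of all genes in each library, 2 of the 38 (Syt4, Pclo) and 123 genes in all (0.765%) did so. Whether a gene can meet this rule depends on its counts, and the 38 genes were not matched by counts to all genes. These numbers are therefore not a result about the list. With 1 library per group, the difference between libraries was not tested. Pclo, the active zone scaffold Piccolo, was at 1.32 in C57BL/6, 1.23 in BTBR and 0.917 in Nav1 KO. Erc1 was at 1.14 in BTBR and 0.844 in Nav1 KO. Syt4 was at 1.29 in C57BL/6 and 0.888 in Nav1 KO. Ppfia2 went the other way, at 0.820 in C57BL/6 and 1.12 in Nav1 KO. Of these genes Ppfia2 alone was called in the class comparison, and 8 of the alternatives did not keep that call.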

How the results depend on the processing

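Of 1212 values of single genes under the alternatives, 1124 kept their side of the threshold, 15 became called and 73 lost the call. Among genes called in the main fit or the alternative, 0 reversed direction. For genes called in neither, a change of direction was not counted. In GABA against excitatory nuclei, 16 of 26 calls among the 38 genes held under every alternative. Over all genes the 5675 calls became 3484 with DESeq2, 2714 without the library term (26 genes of the list became 16) and 3287 with nuclei thinned to 1000 UMIs, and leaving out 1 library gave 3922 to 5196 (24 to 27 of the list). The fits pair the classes by library, and the fit without the library term is the unpaired one. For Pvalb nuclei, 180 calls (4 of the list) became 46 (2) with DESeq2 and 62 to 93 (2 to 3) without 1 library, C57BL/6 giving 62, Nav1 KO 74 and BTBR 93. For striatal-marker nuclei, 1700 (14) became 514 (5) with DESeq2 and 1247 to 1476 (9 to 10) without 1 library, C57BL/6 giving 9. For layer 6 against layer 2/3, 3819 (24) became 1530 (17) with DESeq2 and 2192 to 3491 (21 to 24) without 1 library, Nav1 KO giving 2192. Of the Nav1 KO excitatory ratios, 1202 genes past 1.5-fold (4 of the list) became 2663 with a minimum of 20 counts and 719 (2) in layer 2/3 marker nuclei alone, and the stricter gate left 2 of the list; the GABA ratios went from 948 to 613 with the stricter gate and 2771 with 20 counts. Of the BTBR excitatory ratios, 1952 became 3531 with 20 counts and 1182 in layer 2/3 marker nuclei; the GABA ratios went from 859 (5 of the list) to 450 (2) with the stricter gate and 2508 with 20 counts. Genes of the list whose class ratios lay on opposite sides of 1 went from 4 to 2 when the ratios were divided by the median ratio. Paralog shares moved from 17 to 16 when striatal- and bulb-marker nuclei were kept. Division by the median ratio and fits without TMM or without shared barcodes were chosen after seeing the data. Pvalb nuclei held 48255 to 104113 counts a library, and neuronal RNA in microglia-marker nuclei limits what a low level shows. Where a count moved, the cause was not tested.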
